A study of Mus musculus with 9 samples.

Results

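The genes described here encode 10 transcription factors of the hair follicle stem cell: Sox9, Lhx2, Nfatc1, Foxc1, Tbx1, Nfib, Nfix, Runx1, Tcf7l1 and Trp63. They were taken by gene symbol from a deposited expression table of 37980 rows, and each of the 10 symbols matched 1 row. Their levels were followed over 3 ages in basal cells sorted from follicles of male mice of the common inbred strain C57BL/6J. The mice were 3, 19 or 24 months old, with 3 libraries per age, 9 in all, and no label names a treatment or an altered allele. The cells were sorted from skin by high CD49f (integrin alpha 6) together with CD34, and the RNA was sequenced. The labels number the libraries 1 to 3 at both 3 and 19 months, and 2 to 4 at 24 months. Whether the 3 libraries of an age are 3 animals is not said, so the p-values speak only of library-to-library spread, which could be technical. The 19- and 24-month libraries carry consecutive running numbers and the 3-month libraries a separate block of numbers, so that any effect of batch on the 3-month samples cannot be told apart from age.

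Hair follicle stem cells rest for long periods in the bulge, a niche in the outer root sheath, and are called on at the start of each hair cycle. A small set of transcription factors holds their identity. SOX9 and LHX2 maintain the stem cell state, NFIB and NFIX keep its enhancers open, and TCF7L1 represses WNT target genes. NFATC1 and FOXC1 are tied to quiescence, TBX1 to the renewal of the pool and RUNX1 to the entry into growth. p63, the product of Trp63, is needed by all basal cells of stratified epithelia.

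Values are FPKM, fragments scaled by transcript length and by the mapped fragments of a library, so levels of different genes can be compared per length. The depth of each library is unknown, and between 13445 and 13915 rows per library reached 1 FPKM. Transcripts that define the sorted cells were high. Means at the 3 ages, youngest first, were 548, 626 and 472 FPKM for Cd34, 90.8, 84.5 and 87.4 FPKM for Itga6, which encodes CD49f, and 3805, 4417 and 5304 FPKM for the basal keratin Krt14. Krt15, a bulge keratin, was listed at 0 in all 9 libraries, and each 19-month library lists Krt5, with which Krt14 pairs, at 0 too. A listed 0 can be a failed estimate, and no change is read from it.

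All 10 factors were expressed in every library, with a lowest value of 3.35 FPKM, that of Tbx1 in a 3-month library. The mean over the 9 libraries was 316.7 FPKM for Nfix, 255 for Trp63, 203.9 for Nfib, 147.9 for Sox9 and 109.5 for Lhx2. Each of these 5 genes stood above at least 93.0% of the 11508 protein-coding genes tested. Nfatc1 followed at 47.3 FPKM, above 83.7% of those genes. Runx1 at 12.3 FPKM, Foxc1 at 12.1 FPKM and Tcf7l1 at 9.50 FPKM lay near the middle of the genes, above 53.5%, 53% and 46.7% of them, and Tbx1 at 5.01 FPKM stood above 29.4%.

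The order of the levels was much the same at each age. At 3 months Trp63, Nfix and Nfib led, and the libraries of neighbours in that order overlapped for Trp63 and Nfix, Nfix and Nfib, Runx1 and Foxc1, and Foxc1 and Tcf7l1. At 19 months Nfix stood first without overlap with Trp63, while Nfib and Sox9, Runx1 and Foxc1, and Foxc1 and Tcf7l1 overlapped. At 24 months Nfix again stood above every library of Trp63, and the overlapping neighbours were Trp63 and Nfib, Sox9 and Lhx2, and Foxc1 and Runx1. Sox9 stood above Lhx2 and Lhx2 above Nfatc1 in the means of all 3 ages, and Tbx1 was last at all 3.

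**Figure D1:**
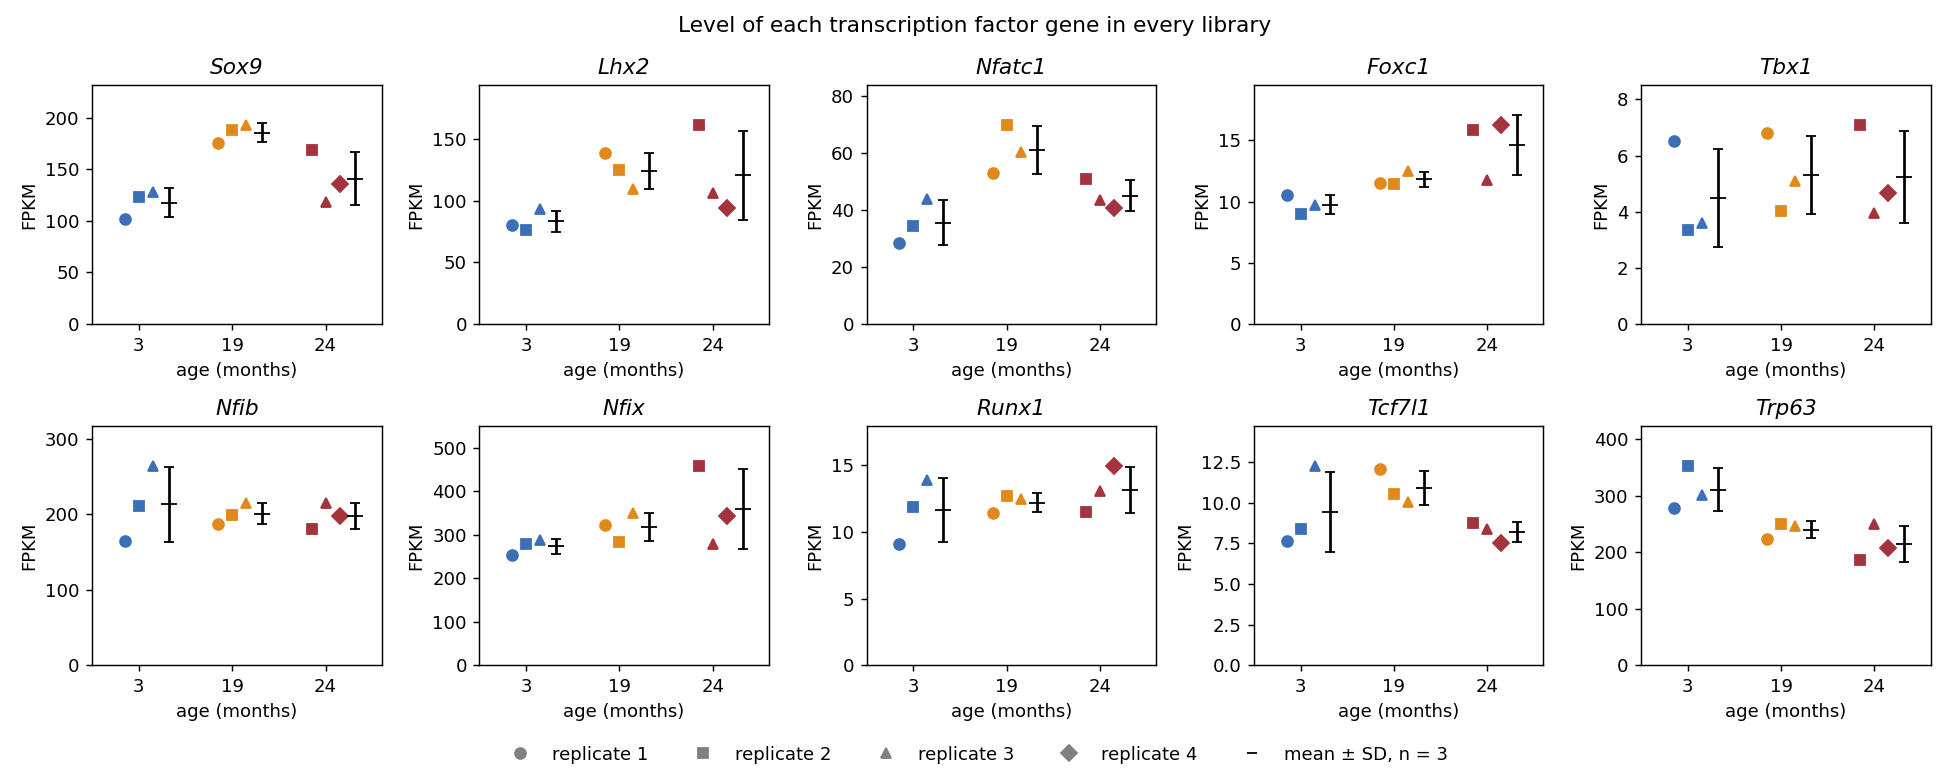
FPKM of each of the 10 transcription factor genes (vertical axes, linear, one panel per gene) at 3, 19 and 24 months, with 1 point per library, the marker shape giving the replicate number, and bars for the mean and SD of 3 libraries. Sox9 and Nfatc1 stand highest in the 19-month libraries, Foxc1 is higher and Trp63 lower in both older ages than in every 3-month library.

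Ages were compared with limma on log2(FPKM + 1), in 1 model of the 9 libraries with Benjamini-Hochberg adjustment over all 14275 rows tested. A gene is called when its adjusted p is under 0.05. In this fit 0 of the 10 factors were called at 19 against 3 months, where 0.280% of all rows were called, 0 of 10 at 24 against 3 months, where 0.203% were, and 0 of 10 at 24 against 19 months, where 0.0490% were. The smallest adjusted p among them was 0.162, 0.117 and 0.404 in these comparisons. At an unadjusted p under 0.05 the counts were 4, 3 and 2 of 10, beside 14.0%, 18.6% and 10.7% of all rows. A fit of the 11508 protein-coding genes alone called 2 of 10 at 19 against 3 months, Sox9 and Nfatc1, both higher, where it called 1.56% of genes in either direction and 0.600% as higher. It called 0 of 10 at 24 against 3 months and 0 of 10 at 24 against 19 months, where it called 3.83% and 0.930% of genes. In the test of a change at any age the counts were 0 of 10 over all rows, where 0.224% were called, and 2 of 10 over protein-coding genes, again Sox9 and Nfatc1, where 4.52% were.

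Separation of the libraries was counted as well. At 19 against 3 months all libraries of 1 age lay beyond those of the other for 4 factors that were higher (Sox9, Lhx2, Nfatc1 and Foxc1), where 10.5% of all rows did so, and for 1 that was lower (Trp63), where 10.9% did. At 24 against 3 months 2 factors were higher without overlap (Lhx2 and Foxc1), beside 10.3% of rows, and 1 was lower (Trp63), beside 11.0%. At 24 against 19 months 3 factors were lower without overlap (Sox9, Nfatc1 and Tcf7l1), beside 9.44% of rows, and 0 were higher, beside 7.85%.

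The direction at 19 against 3 months was upward for 8 of 10 factors, with a median log2 change of 0.22 beside 0.00 over all rows tested. At 24 against 3 months 7 of 10 were above 0, with a median of 0.23 beside 0.00. Both comparisons share the 3-month libraries. At 24 against 19 months 3 of 10 were above 0, with a median of -0.05 beside -0.01. The median size of the change, without sign, was 0.24, 0.30 and 0.16 in the 3 comparisons, beside 0.19, 0.22 and 0.17 over all rows.

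**Figure D2:**
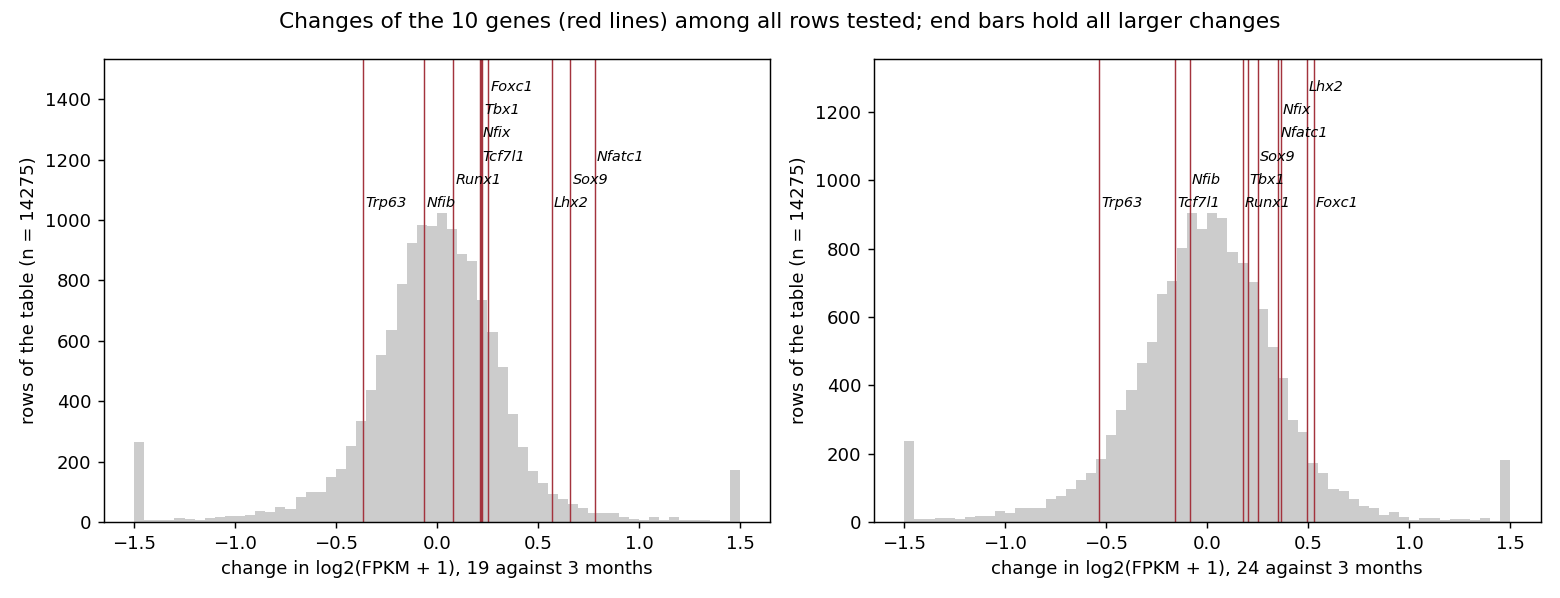
Histograms of the log2 change of all 14275 tested rows at 19 against 3 months and at 24 against 3 months (horizontal axis, log2(FPKM + 1) scale; vertical axis, number of rows; the end bars hold larger changes), with the 10 factors as red lines. Most red lines lie to the right of 0, and those of Sox9 and Nfatc1 at 19 months are larger in size than the changes of 92.2% and 93.9% of rows.

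Sox9 encodes an HMG-box factor that is needed to form and keep the bulge stem cells. Its levels (ENSMUSG00000000567) were 102, 123 and 128 FPKM in the 3-month libraries, 175, 188 and 193 FPKM at 19 months, and 169, 118 and 136 FPKM at 24 months. Every 19-month library exceeded every 3-month and every 24-month library, whereas the 24-month and 3-month libraries overlapped. The means were 117 ± 14.0, 186 ± 9.31 and 141 ± 25.6 FPKM (SD, n = 3 each), a ratio of 1.58 between 19 and 3 months. The log2 change at 19 against 3 months was 0.66 ± 0.15 (SE), with an adjusted p of 0.162 over all rows and 0.0351 over protein-coding genes. The 24-month change was 0.25 from 3 months (95% interval -0.10 to 0.60, unadjusted) and -0.41 from 19 months (-0.76 to -0.06), and neither was called. Without replicate 2 of 24 months, its highest library of that age, the change from 3 months was 0.11.

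Nfatc1 encodes a factor that calcium signalling moves into the nucleus through calcineurin and that holds bulge cells in quiescence. Its row (ENSMUSG00000033016) read 28.3, 34.3 and 44.0 FPKM at 3 months, 53.2, 70.0 and 60.5 FPKM at 19 months, and 51.1, 43.5 and 40.6 FPKM at 24 months. As with Sox9, every 19-month library stood above all others, and the 24-month libraries overlapped with those of 3 months. The means were 35.5 ± 7.91, 61.2 ± 8.42 and 45.1 ± 5.39 FPKM, and the ratio of the 19-month to the 3-month mean was 1.72. On the log2 scale the change at 19 against 3 months was 0.78 ± 0.18 (SE), with an adjusted p of 0.162 over all rows and 0.0266 over protein-coding genes. At 24 months it was 0.35 from 3 months (95% interval -0.07 to 0.77) and -0.43 from 19 months (-0.85 to -0.01), neither called. The change from 3 months was 0.20 without replicate 1 of that age, its lowest library.

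Both calls of the protein-coding fit depended on single libraries. Sox9 was called in 4 of the 9 fits that left out 1 library and Nfatc1 in 5 of 9. For Sox9 the adjusted p was 0.156 without replicate 1, 0.0776 without replicate 2 and 0.0506 without replicate 3 of 3 months, and 0.124 without replicate 2 and 0.146 without replicate 3 of 19 months. For Nfatc1 it was 0.133 without replicate 1 and 0.0900 without replicate 2 of 3 months, and 0.127 without replicate 2 and 0.0908 without replicate 3 of 19 months. The log2 change stayed between 0.56 and 0.73 for Sox9 and between 0.63 and 0.94 for Nfatc1 over the 9 fits.

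**Figure D3:**
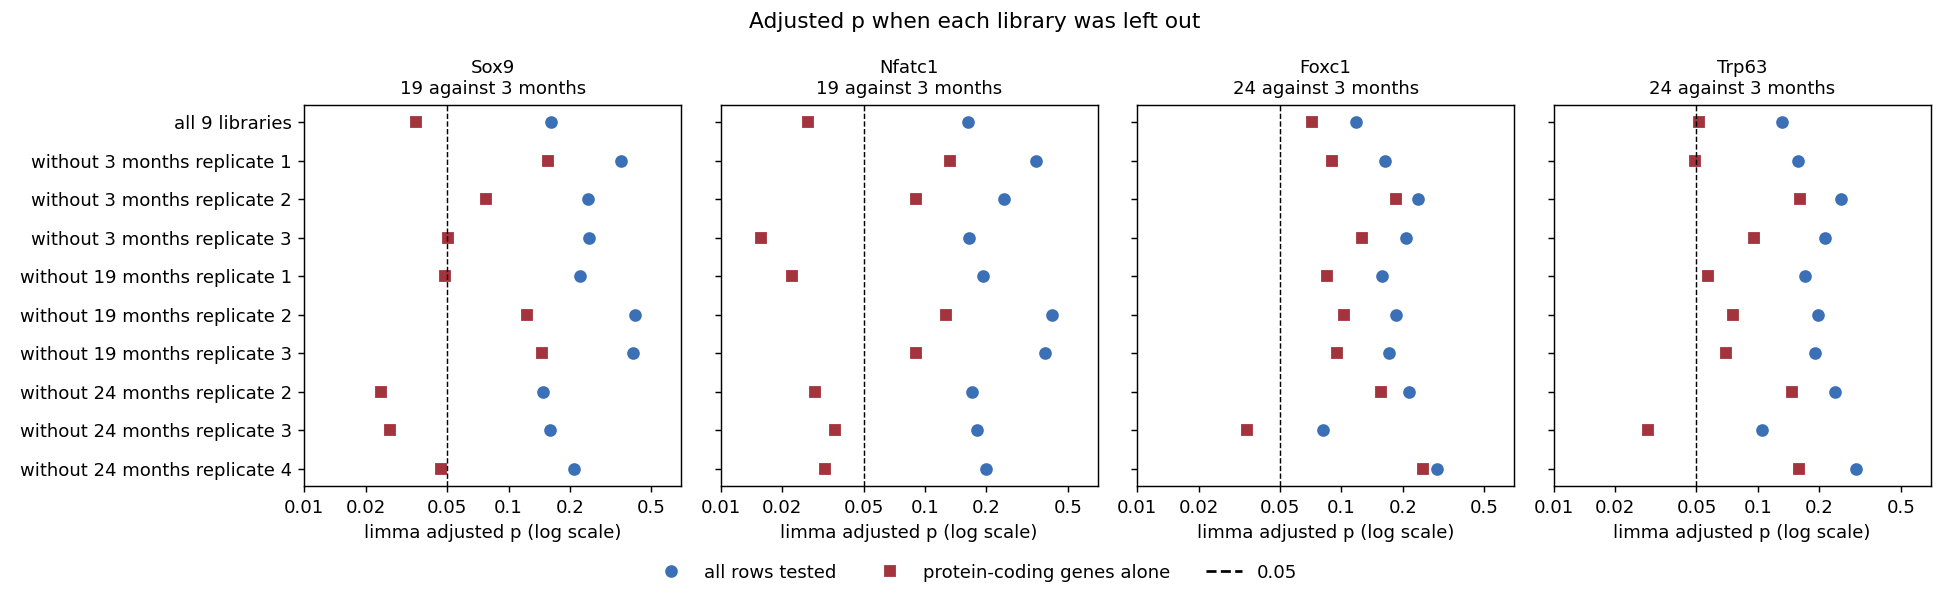
Adjusted p (horizontal axis, log scale; dashed line at 0.05) of Sox9 and Nfatc1 at 19 against 3 months and of Foxc1 and Trp63 at 24 against 3 months, with all libraries and with each of the 9 libraries left out, in the fit of all rows and the fit of protein-coding genes. In the fit of all rows every point lies to the right of the line, and in the protein-coding fit each gene has points on both sides of it.

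Markers of other cell types also differed between these ages. In the protein-coding fit at 19 against 3 months, 5 of 7 tested sebaceous gland markers were called lower (Cidea, Elovl3, Far2, Scd1 and Soat1), as were 1 of 5 melanocyte markers (Tyrp1) and 1 of 4 immune markers (Fcer1g). The summed level of the 8 sebaceous markers was 262.5 to 338.2 FPKM in the 3-month libraries and 239.6 to 294.4 FPKM at 19 months. Most of it was Mgst1, at 185 to 237 and 202 to 262 FPKM. The other 7 summed to 77.7 to 101 FPKM at 3 months and 32.1 to 42.7 FPKM at 19 months, without overlap. The sum of 7 melanocyte markers was 37.3 to 46.0 and 31.5 to 32.8 FPKM, and that of 8 immune markers, of which Lyz2 was at 0 at both ages, 33.4 to 72.4 and 25.3 to 56.9 FPKM. Fibroblast markers summed to 5.99 to 8.76 and 10 to 12 FPKM, and endothelial markers to 11.8 to 14.2 and 9.67 to 10.7 FPKM, with Lum and Cdh5 at 0 in every 19-month library. Of 6 tested markers of differentiated epidermis 0 were called. The part of these cell types in the levels of Sox9 and Nfatc1 was not tested. In sorted bulk RNA, a different number of cells of a type and a different amount of RNA per cell cannot be told apart.

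Lhx2 encodes a LIM homeodomain factor that maintains stem cell character and restrains activation. Its levels (ENSMUSG00000000247) were 80.7, 76.3 and 93.2 FPKM at 3 months, 139, 125 and 109 FPKM at 19 months, and 162, 107 and 93.8 FPKM at 24 months. All 6 older libraries stood above the 3 young ones, the closest by less than 1 FPKM, and the 2 older ages overlapped. The means were 83.4 ± 8.72, 124 ± 14.8 and 121 ± 36.1 FPKM. The log2 change was 0.57 ± 0.21 at 19 and 0.49 ± 0.21 at 24 against 3 months, with adjusted p of 0.297 and 0.254. Over protein-coding genes neither was called, at an adjusted p of 0.124 and 0.128. Without replicate 2 of 24 months, the 24-month change was 0.26.

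Foxc1 encodes a forkhead factor that activated bulge cells switch on and that helps them return to rest. Its row (ENSMUSG00000050295) read 10.5, 9.01 and 9.73 FPKM at 3 months, 11.5, 11.4 and 12.5 FPKM at 19 months, and 15.8, 11.8 and 16.3 FPKM at 24 months. Every older library was above every 3-month library, and replicate 3 of 24 months lay among the 19-month values. The means were 9.76 ± 0.761, 11.8 ± 0.609 and 14.6 ± 2.48 FPKM, and the 24-month mean was 1.50 times that of 3 months. The log2 change at 24 against 3 months was 0.53 ± 0.14, with an adjusted p of 0.117 over all rows and 0.0715 over protein-coding genes. It was called only in the protein-coding fit without replicate 3 of 24 months (change 0.67, adjusted p = 0.0344).

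Lhx2 and Foxc1 were the 2 factors whose older libraries all stood above the young ones, and their promoters are shown for that reason. The sequences are the 250 bases before an annotated start, from RefSeq on GRCm38.p6, a later build than the one the expression table used. Capitals mark matches to short motifs on either strand, the NFAT core GGAAAA (or TTTTCC) and the RUNX core TGTGGT.

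Foxc1, chr13:31806396-31806645, plus strand: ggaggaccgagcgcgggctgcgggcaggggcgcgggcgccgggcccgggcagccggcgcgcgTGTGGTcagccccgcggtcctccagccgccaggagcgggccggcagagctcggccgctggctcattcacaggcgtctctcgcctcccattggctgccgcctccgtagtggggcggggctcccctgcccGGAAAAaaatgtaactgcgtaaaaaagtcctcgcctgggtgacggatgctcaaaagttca
Lhx2, first annotated start, chr2:38339031-38339280, plus strand: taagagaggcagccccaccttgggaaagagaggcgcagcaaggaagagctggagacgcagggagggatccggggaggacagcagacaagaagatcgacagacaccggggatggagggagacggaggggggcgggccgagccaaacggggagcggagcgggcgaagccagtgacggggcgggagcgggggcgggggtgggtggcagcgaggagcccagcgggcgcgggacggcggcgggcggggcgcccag
Lhx2, second annotated start, chr2:38351058-38351307, plus strand: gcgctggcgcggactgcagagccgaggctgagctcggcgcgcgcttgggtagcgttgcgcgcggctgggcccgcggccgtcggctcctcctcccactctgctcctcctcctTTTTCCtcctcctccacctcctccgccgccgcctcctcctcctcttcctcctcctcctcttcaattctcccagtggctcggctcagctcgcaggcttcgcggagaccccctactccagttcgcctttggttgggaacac

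The Foxc1 window held a RUNX match 188 bases and an NFAT match 60 bases before the start, and the window of the second Lhx2 start an NFAT match 139 bases before it. The window of the first Lhx2 start held 0 matches. These letters are common: the NFAT core occurred in 20.4% and the RUNX core in 14.0% of 32851 promoter windows of this length. The other motifs searched were ACAATG for SOX factors (10.7% of windows), TAATTA for LIM homeodomains (4.84%), GTAAACA for forkhead factors (3.17%), GGTGTGA for T-box factors (3.33%) and CTTTGAT for TCF/LEF factors (3.21%). RefSeq windows were matched for 6 of the factors, 12 windows in all, and 5 of the 12 held any of the 7 motifs: that of Foxc1, that of the second Lhx2 start and 3 of the 4 starts of Nfix. The share of all windows that hold any of the 7 motifs was not counted, so 5 of 12 cannot be set against it. A match is a run of letters and not a measured binding site.

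Nfib and Nfix encode nuclear factor I proteins that bind together at enhancers of the bulge. Nfib (ENSMUSG00000008575) read 165, 211 and 264 FPKM at 3 months, 187, 199 and 216 FPKM at 19 months, and 180.2, 215 and 198 FPKM at 24 months. The 3-month libraries enclosed all 6 older ones, and the means of 213 ± 49.6, 200.7 ± 14.1 and 198 ± 17.5 FPKM differed by less than the spread at 3 months. The 95% interval of the log2 change was -0.47 to 0.34 at 19 and -0.49 to 0.32 at 24 against 3 months. Nfix (ENSMUSG00000001911) read 254, 278 and 287 FPKM at 3 months, 322, 284 and 349 FPKM at 19 months, and 458, 277 and 342 FPKM at 24 months. Its ages overlapped in all 3 comparisons, and the top value was that of replicate 2 of 24 months. The means were 273 ± 16.9, 318 ± 32.5 and 359 ± 91.3 FPKM. The change at 24 against 3 months was 0.37 ± 0.19 (adjusted p = 0.335), and 0.17 without that library.

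Tcf7l1 encodes the TCF protein that represses WNT targets in bulge cells. Its levels (ENSMUSG00000055799) were 7.61, 8.40 and 12.3 FPKM at 3 months, 12.1, 10.6 and 10.1 FPKM at 19 months, and 8.73, 8.37 and 7.49 FPKM at 24 months. The 24-month libraries lay below all 19-month ones, and those of 3 months overlapped with both. The means were 9.42 ± 2.48, 10.9 ± 1.05 and 8.20 ± 0.634 FPKM, and the change at 24 against 19 months was -0.37 ± 0.17 (adjusted p = 0.482).

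Tbx1 and Runx1 act in renewal and in activation. Tbx1 (ENSMUSG00000009097) read 6.51, 3.35 and 3.60 FPKM at 3 months, 6.80, 4.03 and 5.11 FPKM at 19 months, and 7.10, 3.97 and 4.67 FPKM at 24 months. One library stood high at each age and the ages overlapped throughout. Its means were 4.49 ± 1.76, 5.31 ± 1.40 and 5.24 ± 1.64 FPKM, the widest relative spread at each age among the 10 factors, with an SD of 39.2%, 26.3% and 31.3% of the mean. The 95% interval at 24 against 3 months ran from -0.44 to 0.84. Runx1 (ENSMUSG00000022952) read 9.11, 11.8 and 13.9 FPKM at 3 months, 11.4, 12.7 and 12.5 FPKM at 19 months, and 11.5, 13.0 and 14.9 FPKM at 24 months. Its ages overlapped in each comparison as well. The means were 11.6 ± 2.41, 12.2 ± 0.692 and 13.1 ± 1.74 FPKM, and the interval at 24 against 3 months was -0.19 to 0.54.

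Trp63 was the only factor whose older libraries all stood below the young ones. Its levels (ENSMUSG00000022510) were 278, 352 and 301 FPKM at 3 months, 222, 250.5 and 247 FPKM at 19 months, and 186, 249.7 and 208 FPKM at 24 months. All 6 older libraries lay below the lowest 3-month library, and the 2 older ages overlapped. The means were 310.5 ± 38.1, 239.9 ± 15.3 and 215 ± 32.2 FPKM, a ratio of 0.691 between 24 and 3 months. The log2 change was -0.37 ± 0.15 at 19 months (adjusted p = 0.329) and -0.53 ± 0.15 at 24 months (adjusted p = 0.131), both against 3 months. Over protein-coding genes the 24-month change had an adjusted p of 0.0514, just outside the threshold, and it was called in 2 of 9 fits that left out 1 library: without replicate 1 of 3 months (0.0492) and without replicate 3 of 24 months (0.0289). The row does not separate the TA and delta-N forms of p63.

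**Figure D4:**
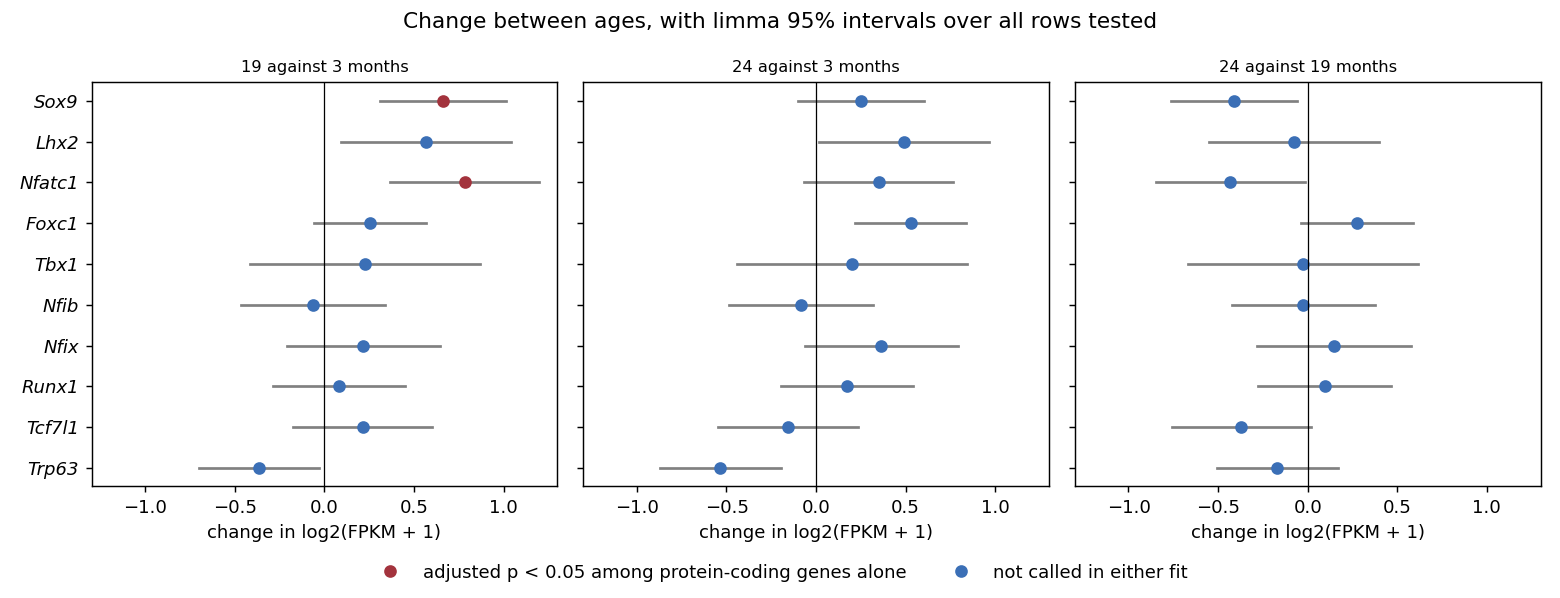
Log2 change of each of the 10 factors (horizontal axis, log2(FPKM + 1) scale) in the 3 comparisons of ages, with unadjusted 95% intervals from the fit of all 14275 rows; red marks a call in the protein-coding fit. Sox9 and Nfatc1 at 19 against 3 months, at 0.66 and 0.78, are the 2 red points. Trp63 and Nfib lie to the left of 0 in all 3 comparisons, and every Nfib interval spans 0.

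Each factor was set beside the relatives of its DNA-binding family, 47 genes in all, of which 19 reached the filter of 1 FPKM in 3 libraries. With the exception of Tcf7l1, each factor had a higher mean FPKM over the 9 libraries than any relative that is not one of the 10. Tcf7l2, a WNT effector, stood at 271 FPKM beside 9.50 FPKM for Tcf7l1. Among p53 relatives Trp53 reached 143 FPKM beside 255 FPKM for Trp63, and among NFI relatives Nfia reached 64.1 FPKM beside 203.9 and 316.7 FPKM for Nfib and Nfix. The next NFAT gene, Nfat5, stood at 13.3 FPKM beside 47.3 FPKM for Nfatc1, and the next SOX gene, Sox15, at 6.48 FPKM beside 147.9 FPKM for Sox9. Relatives of the remaining families were low: Tbx3 at 1.98 FPKM, Runx2 at 0.554 FPKM, Lhx9 at 0.154 FPKM and Foxc2 at 0.0105 FPKM.

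**Figure D5:**
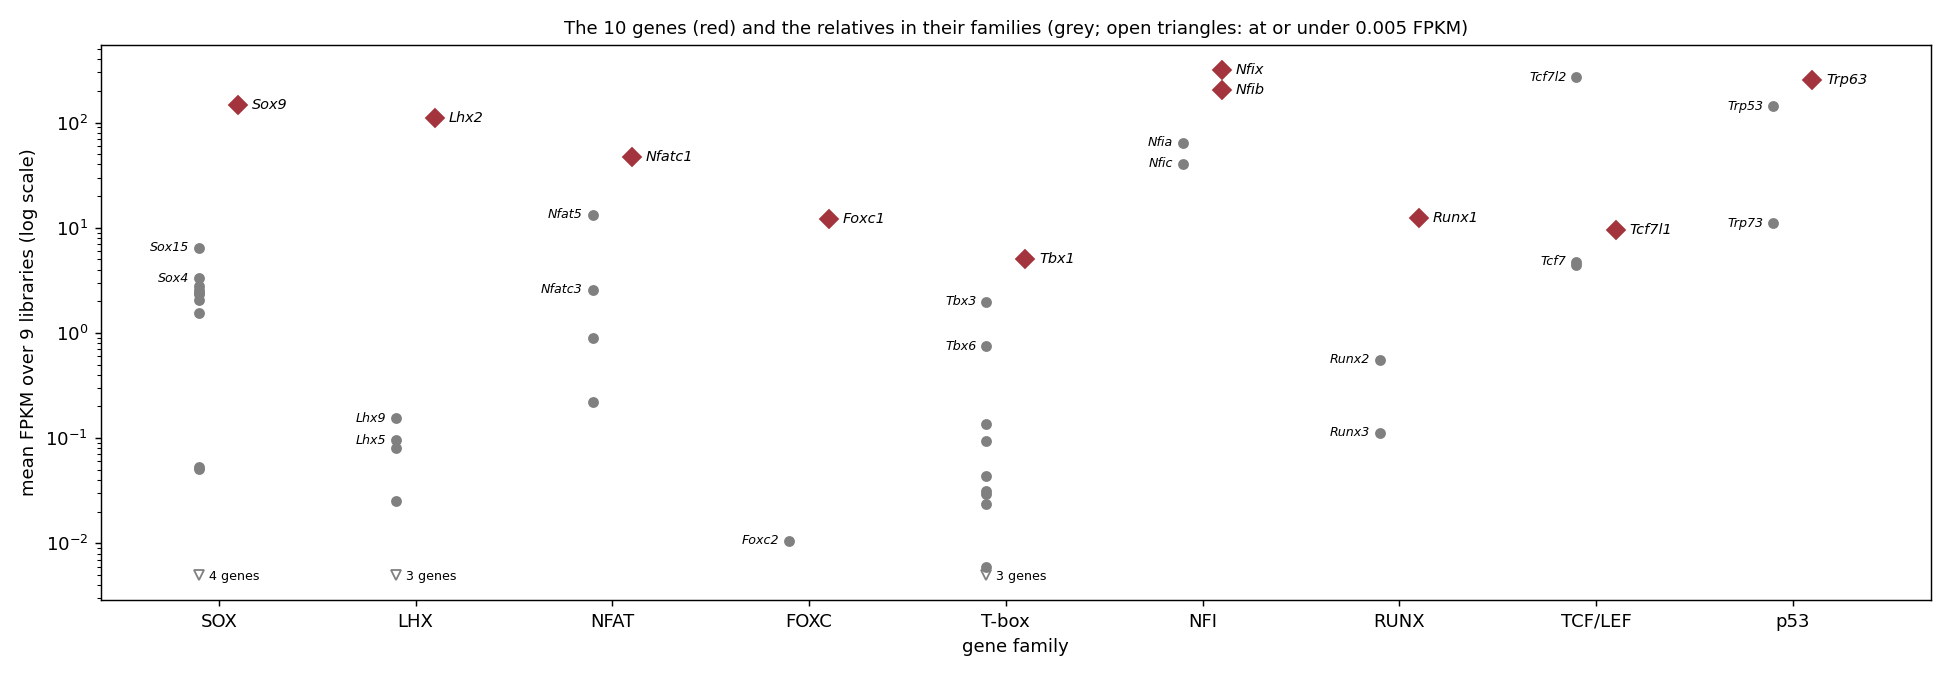
Mean FPKM over 9 libraries (log axis) of the 10 factors (red) and of their family relatives (grey), grouped by family, with triangles for relatives at or under 0.005 FPKM. In the TCF/LEF family the relative Tcf7l2, at 271 FPKM, stands above the factor Tcf7l1, and in every other group drawn a red point is highest. The FOXC group holds only Foxc1 and Foxc2, and other forkhead genes are not drawn.

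Of the 19 relatives tested, 0 were called in the fit of all rows. The protein-coding fit called 1 as lower at 19 against 3 months, where 1.56% of genes were called, and 2 as lower at 24 against 3 months, where 3.83% were. The first was Lef1, the WNT effector of the growing hair germ, at 6.79, 6.76 and 6.83 FPKM at 3 months and 4.15, 1.43 and 2.49 FPKM at 19 months. Its ages did not overlap, and the log2 change was -1.14 ± 0.24 (adjusted p = 0.0266). At 24 months Sox5 read 2.58, 0.747 and 0.974 FPKM, against 3.79, 5.13 and 4.34 FPKM at 3 months (-1.22 ± 0.30, adjusted p = 0.0378), and Trp73 read 9.12, 7.39 and 7.75 FPKM against 11.9, 13.4 and 13.7 FPKM (-0.63 ± 0.15, adjusted p = 0.0326). Neither pair of ages overlapped. Over fits without 1 library the highest adjusted p was 0.111 for Lef1 (without replicate 2 of 19 months), 0.147 for Sox5 and 0.118 for Trp73 (both without replicate 4 of 24 months), and they were called in 4, 4 and 5 of 9. The median change of the 19 relatives was -0.12 at 19 and -0.30 at 24 against 3 months, beside 0.00 over all rows, where the 10 factors had 0.22 and 0.23.

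Cofactors and activators of these proteins made a second list of 26 genes, 20 of them tested. It covered LIM-domain partners, the RUNX partner, TLE corepressors, beta-catenin, calcineurin subunits and calcineurin regulators. In both fits 0 of 20 were called in any comparison, and the median changes were 0.04, 0.12 and 0.01. Values are given for genes chosen for their roles and for Lmo1, Ssbp2 and Aes, chosen for their separation, all after the values had been seen. Cbfb, the shared partner of RUNX proteins, stood at 18.7, 19.1 and 21.2 FPKM at 3, 19 and 24 months, and Ldb1, which joins LIM homeodomain proteins, at 30.0, 25.6 and 23.3 FPKM. Lmo1, a LIM-only protein, stood at 26.1 ± 2.21, 38.8 ± 3.67 and 33.6 ± 3.01 FPKM, and Ssbp2, which binds LDB1, at 73.4 ± 6.15, 94.9 ± 5.32 and 102 ± 17.5 FPKM. For both, all older libraries lay above those of 3 months. The smallest adjusted p over protein-coding genes was 0.0521 for Lmo1 (19 against 3 months) and 0.0752 for Ssbp2 (24 against 3 months). Aes went the other way, at 28.0, 22.3 and 19.9 FPKM, with all older libraries below those of 3 months. Among the 20 tested genes, Ssbp3 was also higher than at 3 months without overlap at 19 months, and Ppp3cc and Tle6 at 24 months. Ldb1 and Cbfa2t2 were lower without overlap at 24 months. Of the genes that did not reach the filter, Ldb2 was lower without overlap at both older ages. Ssbp4 was lower and Runx1t1 higher in this way at 24 months. Over all rows 10.5% were higher and 10.9% lower without overlap at 19 against 3 months, and 10.3% and 11.0% at 24 against 3 months. Ctnnb1, the beta-catenin that TCF proteins bind, stood at 83.2, 99.5 and 88.3 FPKM. Rcan1, a calcineurin inhibitor that NFAT proteins switch on, stood at 68.7 ± 29.1, 106 ± 17.6 and 94.3 ± 12.6 FPKM, with overlapping ages.

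Another list held 22 genes described as controlled by these factors in skin, of which 20 were tested in the fit of all rows and 19 in the protein-coding fit. Apart from Krt5, which is listed at 0 at 19 months, 0 were called over all rows. In the protein-coding fit 0 were called at 19 against 3 months and at 24 against 19 months, and 3 of 19 were lower at 24 against 3 months, where 3.83% of all genes were called in either direction: Itgb6, Lgr5 and Perp. Itgb6, an integrin subunit that helps activate TGF-beta, read 26.0, 28.4 and 27.7 FPKM at 3 months, 15.6, 19.9 and 22.4 FPKM at 19 months, and 16.5, 11.3 and 13.5 FPKM at 24 months. Both older ages lay below every 3-month library, and the change at 24 months was -0.96 ± 0.17 (adjusted p = 0.00638), called in 9 of 9 fits without 1 library. Lgr5, a bulge receptor that amplifies WNT signals, was also called in 9 of 9, at 121 ± 17.6 FPKM at 3 months and 59.3 ± 7.09 FPKM at 24 months. Perp, a p53 and p63 target of desmosomes, fell from 1612, 1816 and 1446 FPKM at 3 months to 996, 1207 and 835 FPKM at 24 months (-0.69 ± 0.17, adjusted p = 0.0324). It was called in 5 of 9 such fits, with a highest adjusted p of 0.149 without replicate 4 of 24 months. The median change of the list in the protein-coding fit was 0.01, -0.09 and -0.20. At 24 against 3 months 6 of 7 tested sebaceous markers were lower in the same fit and 1, Mgst1, was higher. Mgst1 read 321 to 430.3 FPKM at 24 months, and the other 7 sebaceous markers summed to 30.7 to 32.2 FPKM, below every 3-month library. The melanocyte marker Tyrp1 was lower (-1.31 ± 0.26, adjusted p = 0.0132), with a melanocyte sum of 29.0 to 34.6 FPKM. Both tested endothelial markers were lower, with a sum of 5.63 to 7.24 FPKM. The part of these cell types in the 24-month levels was not tested.

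For each factor, the genes with the most similar profile were taken as those with the highest Pearson correlation of log2(FPKM + 1) over the 9 libraries, among 11507 protein-coding genes. The 9 libraries share 3 ages and their normalisation, so this describes a likeness and carries no test. Sox9 was most like Gatsl3 (0.966), Kctd11 (0.964) and Dmkn (0.957), and Nfatc1 most like Pou2f1 (0.959), Gatsl3 (0.954) and Shisa2 (0.954). Gatsl3 thus appears for both, and its levels were 46.9, 55.1 and 62.4 FPKM at 3 months, 74.8, 85.3 and 87.4 FPKM at 19 months and 67.8, 57.0 and 65.1 FPKM at 24 months. Lhx2 was most like Fzd2 (0.953), Crocc (0.950) and Gm16039 (0.949), Foxc1 most like Ing1 (0.970), Nupr1 (0.948) and Rplp2 (0.947), and Trp63 most like Atf2 (0.985), Pus10 (0.977) and Gmcl1 (0.976). The nearest genes were Lrp6, Snx19 and Lmtk2 for Nfib (0.971, 0.967 and 0.965) and Tmem151a, Gm10116 and Spint2 for Nfix (0.933, 0.921 and 0.916). They were Fbxo28, Ribc1 and Rragc for Runx1 (0.965, 0.960 and 0.957), Rptor and Plcg2 for Tcf7l1 (0.967 and 0.939), and Trmt112, Uqcrq and Tpst2 for Tbx1 (0.953, 0.930 and 0.921).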

How the data were processed

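RNA of sorted CD49f high CD34+ hair follicle stem cells was measured in 9 libraries, 3 at each of 3 ages. The authors deposited 1 table of FPKM values, 1 row per gene and 1 column per library. TopHat, Cuffdiff and the build NCBIM37 are named per the submitters' processing notes; versions, settings and strand use were not given in the sources used here. Depth is unknown, so no counting interval or detection limit could be given, and genes that overlap others are uncertain.

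Groups came from the age in the labels. The 14275 rows that reached 1 FPKM in 3 or more libraries were fitted with limma 3.58.1 in R 4.3.3 on log2(FPKM + 1), with a mean-dependent prior variance, all 9 libraries in 1 model and two-sided tests. P-values were adjusted by Benjamini-Hochberg over all rows, with a threshold of 0.05. Fold changes on this scale understate the change of low genes. A second fit used 11508 protein-coding genes, typed from GENCODE M21 by Ensembl identifier (32916 of 37980 rows matched), without rows at exactly 0 in every library of an age. Its values stand beside the first where the call differs. The fit of all rows was tested on simulated data, and the protein-coding fit was not.

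The members, lists and fits were chosen with earlier results of these data known. Besides the 10 factors, the text names list genes called in either fit, the highest relative of each family, the 3 genes most like each factor (1 of them is not reported here), sort markers, and markers of other cell types called where a factor was. Motifs were searched in RefSeq promoter windows of GRCm38.p6. Alternatives were other pseudocounts, filters, priors, scalings, gene sets and samples, a replicate block, and leaving out each library. Counts of fits that left out a library include those without a library of the age not compared.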

Additional observations from a re-analysis of the deposited data

How the results depend on the processing

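Over all rows, 0 of the 10 factors were called in any comparison, and every alternative on all rows (pseudocounts of 0.1 and 5, no filter, 5 FPKM, a robust prior, no rows listed at 0 at an age, quantile normalisation, a median shift, only the 2 ages compared, the replicate block, each library left out) also called 0. Protein-coding genes alone gave 2 at 19 against 3 months and 2 in the test of any age; with a robust prior they gave 2, 2 and, at 24 against 3 months, 1 (Trp63), where 197, 557 and 514 of 11508 genes were called. Leaving out 1 library there gave 0 to 2 at 19 against 3 months, 0 to 2 at 24 against 3 months and 0 to 2 at any age. The replicate numbers were not treated as pairs: deviations of same-numbered libraries correlated at 0.156, -0.163 and 0.0932 for 3 and 19 months, 0.148 and 0.188 for 3 and 24 months, and -0.174 and -0.197 for 19 and 24 months. With the replicate number as a block, protein-coding genes gave 2 at 19 against 3 months and 1 at any age, where 251 and 351 of 11508 genes were called. The block turned the direction of 4 uncalled changes: Lhx2 (0.11) and Tbx1 (0.24) at 24 against 19 months, and Runx1 at 24 against 3 months (-0.013) and 24 against 19 months (-0.093).

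Leaving out 1 library turned the sign of 9 uncalled changes, in both fits alike. At 24 against 19 months the ranges were -0.31 to 0.084 for Lhx2 (0.0057 without replicate 1 of 19 months), -0.23 to 0.14 for Tbx1 (0.13 and 0.031 without replicates 3 and 4 of 24 months), -0.086 to 0.041 for Nfib (0.029 without replicate 3 of 19 months) and -0.042 to 0.32 for Nfix. At 24 against 3 months they were -0.0022 to 0.45 for Tbx1, -0.26 to 0.080 for Nfib and -0.28 to 0.029 for Tcf7l1, and at 19 against 3 months -0.23 to 0.10 for Nfib and -0.071 to 0.21 for Runx1. The cause was not tested. Sox9, Nfatc1, Foxc1 and Trp63 kept their direction in all alternatives run. Over all genes the count of calls moved widely: 40, 29 and 7 with all rows, 27, 0 and 0 without rows listed at 0 at an age (1976, 2630 and 1504 at an unadjusted p under 0.05), and 179, 441 and 107 with protein-coding genes. The unknown depth limits the precision of the low genes, Tbx1 above all.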

Other observations

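Other transcription factors of the follicle and its lineages, 39 genes of which 32 were tested, were set beside the 10 stem cell factors. Over all rows 1 of 32 was called at 19 against 3 months, beside 0.280% of rows, and 0 in the other comparisons. It was Ets2, an ETS factor downstream of growth factor signals, which read 31.0, 31.3 and 32.8 FPKM at 3 months, 20.5, 18.0 and 16.4 FPKM at 19 months and 27.6, 27.5 and 26.6 FPKM at 24 months. Its 19-month libraries were the lowest 3 of the 9, and the log2 change at 19 against 3 months was -0.77 ± 0.10 (limma adjusted p = 0.0337). Over all rows this call was kept in 1 of 9 fits without 1 library, and over protein-coding genes in 8 of 9 (highest adjusted p = 0.0559, without replicate 3 of 19 months).

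The protein-coding fit called 2 of 32 at 19 against 3 months (Ets2 and Etv4), 2 at 24 against 3 months and 1 at 24 against 19 months, beside 1.56%, 3.83% and 0.930% of genes. Etv4, another ETS factor, had a mean of 7.18 FPKM at 3 and 2.90 FPKM at 19 months (adjusted p = 0.0468, called in 2 of 9 fits without 1 library). Klf4, a factor of the differentiating epidermis, read 153, 183 and 157 FPKM at 3 months and 353, 388 and 246 FPKM at 24 months (change 0.97 ± 0.26, adjusted p = 0.0478, 3 of 9). Gata6, known from the upper follicle and sebaceous duct, stood at 2.05 ± 0.273 and 4.52 ± 1.13 FPKM at 3 and 24 months (adjusted p = 0.0278, 5 of 9). Klf5, a factor of basal keratinocytes, stood at 10.96 ± 1.72 FPKM at 19 and 19.7 ± 2.58 FPKM at 24 months (adjusted p = 0.0311, 4 of 9). The differentiated epidermis markers summed to 1991 to 2942, 2398 to 3205 and 2236 to 3954 FPKM at 3, 19 and 24 months, and their part in the levels of Klf4 and Gata6 was not tested. The median change of the 32 genes was -0.12, 0.11 and 0.17 at 19 against 3, 24 against 3 and 24 against 19 months.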
